A study of Mus musculus with 13 samples.

Results

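The miR-181 family was followed here in melanoma tumors of mice that ate curcumin and of mice on a normal diet. Its members are the 4 mature miRNAs mmu-miR-181a-5p, mmu-miR-181b-5p, mmu-miR-181c-5p and mmu-miR-181d-5p, chosen by their names among the 1079 mouse miRNAs of the array. The 13 tumors grew in male C57BL/6 mice after subcutaneous injection of B78H1 cells in each flank. These cells are an amelanotic mouse melanoma line that descends from B16 melanoma. In 7 mice the chow held 4% curcumin, a plant polyphenol, and in 6 mice it was standard chow of the same batch. The diet began 14 days before the cells were injected, the tumors were taken at day 28, and both groups carried the same cells. The ages of the mice were not given in the sources used here. Each tumor was hybridized to 1 array in 1 color. The study asked whether curcumin in the diet changes the miRNA profile of the tumors.

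A miRNA guides the silencing complex to messenger RNAs that pair with its seed, the short stretch near its 5′ end, and so lowers their stability and translation. Members of a family share the seed and are expected to read largely the same target sites, while the bases after it differ. The miR-181 family is best known from the blood system, where miR-181a tunes the sensitivity of the T-cell receptor in developing T cells and where the family takes part in B-cell development. It has also been studied in vascular inflammation, in muscle and in many tumors.

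The mature sequences are shown because they tell how alike the measured molecules are. All 4 members and all 6 other arms were matched by name to RefSeq on the assembly GRCm38.p6, and the seed, bases 2 to 8 from the 5′ end, is in capitals:
mmu-miR-181a-5p: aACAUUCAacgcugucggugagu
mmu-miR-181b-5p: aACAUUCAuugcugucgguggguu
mmu-miR-181c-5p: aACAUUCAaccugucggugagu
mmu-miR-181d-5p: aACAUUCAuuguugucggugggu

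These 4 were the only mature names of the RefSeq table with this seed. Of the 1079 array names 840 were matched to that table and 239 were not. Counted from the 5′ end, miR-181b-5p differs from miR-181a-5p by the substitutions A9U, C10U and A21G and is 1 base longer. From miR-181b-5p to miR-181d-5p the change is C12U alone over the length both share. The miR-181c-5p sequence, of 22 bases, differs from the 23 bases of miR-181a-5p by 1 edit, the loss of 1 base. By sequence, a and c therefore lie close together, and so do b and d. Probe sequences were not used here, and how much of one member is also caught by the probes of another was not tested.

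By position the pairing is another one. The members come from 3 clusters, each holding a pair of neighboring hairpins. Mir181a-1 and Mir181b-1 lie 97 bases apart on chromosome 1, Mir181a-2 and Mir181b-2 lie 1019 bases apart on chromosome 2 within Nr6a1 and the antisense gene Nr6a1os, and Mir181c and Mir181d lie 85 bases apart on chromosome 8. The array cannot tell which of the paired loci a mature miR-181a-5p or miR-181b-5p came from. The other arm of the hairpin, the 3p arm, differs in sequence between loci. It can tell the loci apart as far as its probes do, which was not tested. The chromosome 1 hairpins are printed for that reason, with both mature arms in capitals:
Mir181a-1, chr1:137966455-137966541, plus strand: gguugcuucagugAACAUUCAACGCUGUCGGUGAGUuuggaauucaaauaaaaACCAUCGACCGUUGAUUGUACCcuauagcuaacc
Mir181b-1, chr1:137966639-137966718, plus strand: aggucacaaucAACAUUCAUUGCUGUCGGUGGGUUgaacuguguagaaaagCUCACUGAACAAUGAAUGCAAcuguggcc

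The arrays of the curcumin tumors summed to a signal of 114095 to 281508 and those of the controls to 150272 to 244666, and the software called 272 to 370 and 313 to 412 mouse miRNAs detected. Curcumin tumor 5 had the lowest signal and the fewest detected miRNAs (272), and control tumor 5 had the most (412). The arrays lay on 2 slides, with 3 curcumin and 2 control tumors on slide 1 and 4 of each on slide 2. On both slides the controls lay in line 1 and the curcumin tumors in line 2, so this position and the diet cannot be told apart. Values below are log2 of the signal summed over the probes of a miRNA after quantile normalization, so that a value says where a miRNA stood within its own array. The diets were set against each other with limma on the whole set of 1079, p-values were adjusted by Benjamini-Hochberg, and an adjusted p under 0.05 counted as passing.

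Of the 4 members, miR-181c-5p passed the threshold and was higher in the curcumin tumors, and the other 3 did not pass it. Over the whole array 15.8% of the miRNAs passed it, 8.34% as higher and 7.51% as lower, and 41.6% of the 243 miRNAs detected on all arrays did. A count of 1 in 4 is thus not set apart from this background. In no member were the groups without overlap, which was the case for 5.47% of all miRNAs and for 11.9% of those 243, whose median log2 fold change was -0.09. All these RNAs came from whole tumors, in which fewer cells of a type and less RNA per cell cannot be told apart.

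**Figure D1:**
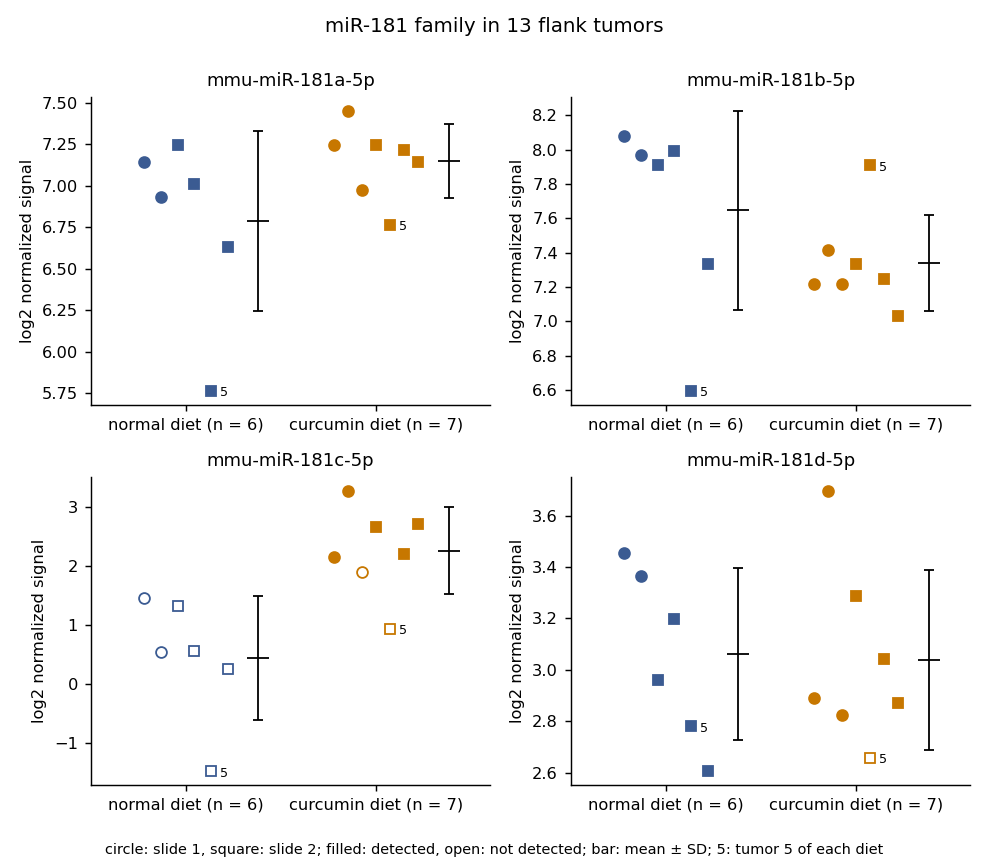
Normalized signal (log2) of the 4 members in each tumor of the normal diet (n = 6) and the curcumin diet (n = 7); circles are arrays of slide 1, squares of slide 2, open symbols are arrays on which the software did not call the miRNA detected, and bars are mean ± SD. The miR-181c-5p values of the curcumin tumors reach from 0.94 to 3.27 and those of the controls from -1.47 to 1.46, all undetected in the controls; the miR-181d-5p means are 3.04 and 3.06.

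The member miR-181a-5p, the one known for T-cell receptor signaling, was detected in all 13 tumors. Its log2 signal reached from 6.76 over a median of 7.21 to 7.45 in the curcumin tumors and from 5.76 over 6.97 to 7.25 in the controls. The ranges overlapped, and control tumor 5 at 5.76 lay below every other tumor. The means were 7.15 ± 0.22 (SD, n = 7) and 6.79 ± 0.54 (SD, n = 6). They differed by 0.36 on the log2 scale (SE 0.22, 95% interval -0.12 to 0.84; limma adjusted p = 0.393). Without control tumor 5 the difference was 0.16. Both of its probes gave values in the same direction, 0.53 ± 0.23 (SE) and 0.24 ± 0.21 (SE), and neither passed.

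The cluster partner miR-181b-5p was also detected in all 13 tumors. It reached from 7.03 over 7.25 to 7.91 in the curcumin tumors and from 6.59 over 7.94 to 8.08 in the controls. Here 6 curcumin tumors lay at or below 7.42, while curcumin tumor 5 stood at 7.91 among the upper controls, and control tumor 5 at 6.59 lay below all curcumin tumors. The means were 7.34 ± 0.28 (SD, n = 7) and 7.65 ± 0.58 (SD, n = 6). The log2 fold change was -0.31 (SE 0.24, 95% interval -0.84 to 0.22; limma adjusted p = 0.609), and the single probes stood at -0.23 and -0.41. Without control tumor 5 it was -0.52 (limma adjusted p = 0.0655).

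The member miR-181c-5p, encoded on chromosome 8 beside miR-181d-5p, passed the software's detection call in 5 of 7 tumors of the curcumin diet and in 0 of 6 of the normal diet. It reached from 0.94 over 2.21 to 3.27 in the curcumin tumors and from -1.47 over 0.56 to 1.46 in the controls. Curcumin tumor 5 was the lowest of its group and lay within the control range, and the other 6 curcumin tumors lay above every control. The means were 2.27 ± 0.74 (SD, n = 7) and 0.45 ± 1.05 (SD, n = 6). They differed by 1.82 on the log2 scale (SE 0.49, 95% interval 0.74 to 2.90; limma adjusted p = 0.0310). An exact two-sided permutation test, which ran through all 1716 ways to split the tumors, gave p = 0.00291, where the smallest possible p is 0.000583. Since no control array measured it above background, the size of the difference is uncertain. With the lowest detected level of each array in sums of all probes as the floor, the log2 difference stayed at 1.82. That floor left the values of miR-181c-5p unchanged, so it could not move the difference and is no check of it. A second level was the lowest detected one of each control array in sums of detected probes or, where higher, the signal of miR-181c-5p itself. Against it the mean of the curcumin tumors was 2.51-fold higher with sums of detected probes. With sums of all probes, which are on another scale than this level, it was 2.99-fold higher. Neither is a strict lower limit, because the mean of the curcumin tumors includes 2 arrays on which miR-181c-5p was not detected. The size also depended on how low signals were handled. With sums of detected probes and their lowest detected level on each array as the floor, it was 1.52 on the log2 scale (limma adjusted p = 0.0249). With the authors' own values, where an added constant flattens low signals, it was 0.55 (limma adjusted p = 0.0276). Another background correction, normexp on the spot medians with an offset of 50, gave 0.09 (limma adjusted p = 0.0143).

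Before normalization miR-181c-5p was close to the background, with 5.00 as the median summed signal in the curcumin tumors and 1.59 in the controls. The 6 curcumin tumors other than tumor 5 lay between 3.17 and 9.30, and the controls between 0.95 and 2.76. Curcumin tumor 5 had a signal of -0.30 before normalization, the lowest of all 13 tumors, and a normalized value above 4 of the 6 controls. Control tumor 5 went the other way, from 1.86 before to -1.47 after, the lowest normalized value. The quantile normalization thus set the order of these 2 arrays. Without it, the value of curcumin tumor 5 falls to the floor, and the log2 fold change over all tumors was -0.05 (limma adjusted p = 1). With that tumor left out, it was 1.84 without normalization (limma adjusted p = 0.00452) and 1.94 with it (limma adjusted p = 0.01). When 1 tumor at a time was left out, the log2 fold change stayed between 1.44 and 2.04. The adjusted p then rose above the threshold, to at most 0.0645, in 8 of 13 fits, those without curcumin tumor 1, 2, 4, 6 or 7 or without control tumor 2, 4 or 6.

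Its cluster partner miR-181d-5p was detected in 6 of 7 tumors of the curcumin diet, all but tumor 5, and in all 6 of the normal diet. It reached from 2.66 over 2.89 to 3.70 in the curcumin tumors and from 2.61 over 3.08 to 3.45 in the controls, so that the ranges covered each other almost fully. The means were 3.04 ± 0.35 (SD, n = 7) and 3.06 ± 0.33 (SD, n = 6). The log2 fold change was -0.02 (SE 0.19, limma adjusted p = 1), with a 95% interval from -0.44 to 0.39. This interval does not reach the 1.82 found for miR-181c-5p.

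The diets were also compared within each slide. The log2 fold change of miR-181c-5p was 1.44 on slide 1 and 1.96 on slide 2, neither past the threshold by itself (limma adjusted p = 0.452 and 0.275). For miR-181a-5p it was 0.19 and 0.43, and for miR-181d-5p -0.27 and 0.08. The fold change of miR-181b-5p was -0.74 on slide 1 and -0.08 on slide 2, which holds both tumors numbered 5. The difference between slides passed the threshold for none of the 4 (limma adjusted p = 1 for each; unadjusted p from 0.210 to 0.634).

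The a and b members stood far above background and the c and d members near it. Each member was measured by a pair of probes with 20 spots each per array. For miR-181a-5p, 100% of the spots of both probes were well above background on every array, and for miR-181b-5p 95% or more. For miR-181c-5p the probe A_54_P1484 had 25 of 140 such spots over the curcumin arrays, with up to 70% on one array (curcumin tumor 2), and 0 of 120 over the control arrays. Its second probe, A_54_P1485, had 1 of 140 and 0 of 120. The miR-181d-5p probes had 5 of 140 and 71 of 140 in the curcumin tumors and 7 of 120 and 58 of 120 in the controls. No spot of these probes was saturated. Brightness depends on the probe as well as on the RNA, so that the levels of different members were not set against each other as amounts.

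**Figure D2:**
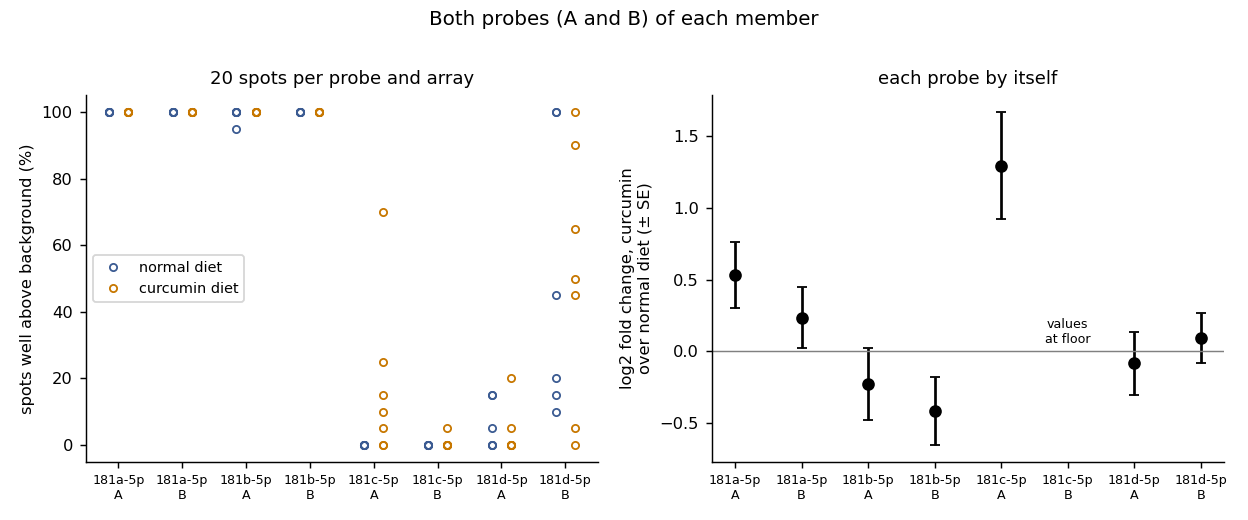
Left, percent of the 20 spots of each probe that were well above background, 1 circle per array (equal values overlie), for both probes (A and B) of each member; right, log2 fold change of curcumin over normal diet for each probe by itself (± SE). The a and b probes lie at 95% to 100% in both diets, the first miR-181c-5p probe reaches 70% in curcumin tumors and stays at 0% in controls, and its fold change is 1.30; the other miR-181c-5p probe has values at the floor and no fold change is drawn.

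Taken alone, the probe A_54_P1484 of miR-181c-5p gave a log2 fold change of 1.30 (SE 0.37, limma adjusted p = 0.0499), where 10.2% of the 2754 single probes passed the threshold. The probe A_54_P1485 was at the floor on 3 arrays, and its adjusted p was 0.0765. Its median spot signal reached from -0.46 to 9.07 in the curcumin tumors and from -0.68 to 1.61 in the controls. The miR-181d-5p probes gave -0.08 and 0.10.

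Differences between members within a tumor test directly whether one member moved differently from another, and a factor common to a whole array cancels in them as long as both signals lie above the floor. The pairs compared were 4, a with b and c with d as cluster partners, and a with c and b with d as the closest in sequence. The level of such a difference depends on the probes, and the contrast between the diets is what was tested. The p-values are from exact two-sided permutation tests, adjusted over the 4 pairs.

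The cluster partners a and b parted between the diets, although neither passed by itself. Their log2 difference, a minus b, reached from -1.14 over -0.03 to 0.11 in the curcumin tumors and from -1.04 over -0.88 to -0.66 in the controls. All curcumin tumors but one lay above all controls, and curcumin tumor 5, at -1.14, lay below all of them. The means were -0.19 ± 0.44 (SD, n = 7) and -0.86 ± 0.15 (SD, n = 6), a difference of 0.67 (exact permutation p = 0.00874, adjusted p = 0.0117). Leaving out any one tumor gave 0.62 to 0.83, and the values before normalization had the same order of groups, with curcumin tumor 5 at -0.89, the other curcumin tumors between -0.21 and 0.15 and the controls between -1.02 and -0.54. The difference was 0.93 on slide 1 and 0.51 on slide 2, where the smallest possible unadjusted p was 0.1 and 0.0286, so that slide 1 by itself could not pass. Slide 2 did not pass either (exact permutation, adjusted p = 0.19). With normexp it was 0.44 and did not pass (exact permutation, adjusted p = 0.0699).

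For the cluster partners c and d the diets differed as well, with c near or below detection. The log2 difference c minus d reached from -1.72 over -0.72 to -0.16 in the curcumin tumors and from -4.25 over -2.49 to -1.64 in the controls. The groups overlapped at 1 curcumin tumor, again tumor 5. The means were -0.77 ± 0.49 (SD, n = 7) and -2.61 ± 0.91 (SD, n = 6), a difference of 1.84 (exact permutation p = 0.00175, adjusted p = 0.0035). It was 1.72 on slide 1 and 1.88 on slide 2, and neither slide passed by itself (exact permutation, adjusted p = 0.133 and 0.114). Because miR-181c-5p was detected on no control array, the size of this difference is not measured. It was 0.55 with the authors' own log2 values and 0.09 with normexp (exact permutation, adjusted p = 0.00932 and 0.00233).

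Among the pairs close in sequence, a minus c reached from 4.18 over 5.01 to 5.82 in the curcumin tumors and from 5.68 over 6.38 to 7.24 in the controls. The diets differed by -1.46 (exact permutation p = 0.00175, adjusted p = 0.0035), a size that rests on c values not above background in any control. The pair b minus d reached from 3.72 over 4.20 to 5.25 and from 3.81 over 4.68 to 4.95, and differed by -0.29 (exact permutation p = 0.266, adjusted p = 0.266). Here curcumin tumor 5 was the highest of its group and control tumor 5 the lowest of the other, and without curcumin tumor 5 the difference was -0.44 (exact permutation, adjusted p = 0.0455). The c values near background entered 2 of these 4 contrasts, c with d and a with c. Without quantile normalization they came to 0.22 and 0.27 over all tumors, and with curcumin tumor 5 left out to 1.81 and -1.43 (adjusted p = 0.00289 each, exact permutation test). On the authors' own log2 scale a minus c differed by -0.21 and did not pass (exact permutation, adjusted p = 0.24), and with normexp by 0.10 (exact permutation, adjusted p = 0.43).

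**Figure D3:**
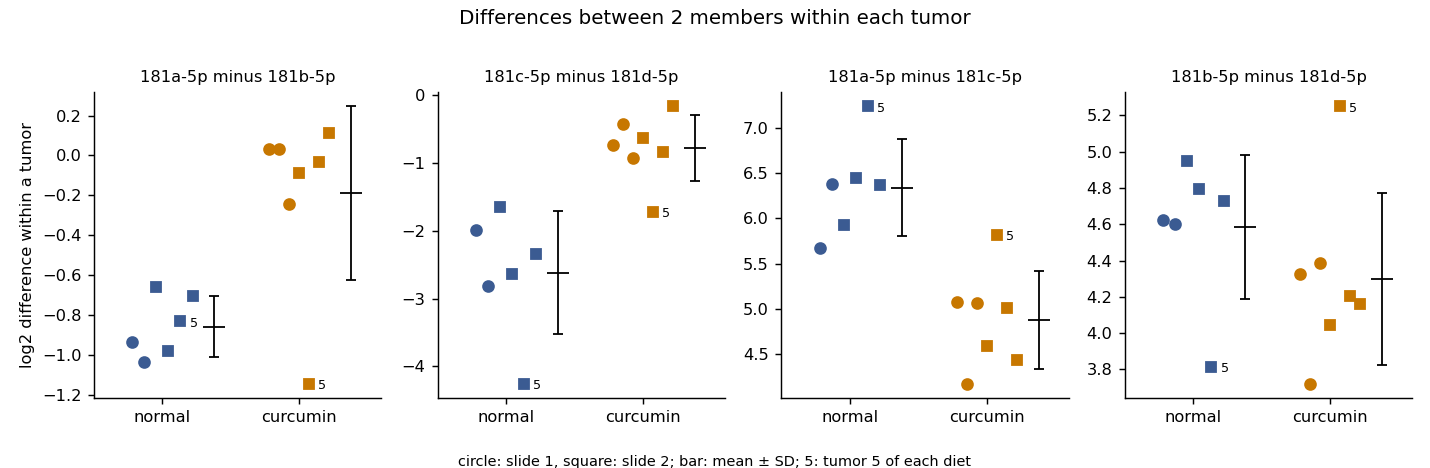
Difference of the log2 signals of 2 members within each tumor, for the 4 pairs, by diet; circles are slide 1, squares slide 2, the digit marks tumor 5 of each diet and bars are mean ± SD. In the a minus b panel 6 curcumin tumors lie between -0.24 and 0.11, the controls between -1.04 and -0.66, and curcumin tumor 5 at -1.14.

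The 3p arms were looked at next, since they are made from the same hairpins and miR-181a-1-3p comes from the chromosome 1 locus alone. Its seed differs from that of the family, and it differs from the chromosome 2 arm miR-181a-2-3p by the substitutions U5C and U16C:
mmu-miR-181a-1-3p: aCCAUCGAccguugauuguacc
mmu-miR-181a-2-3p: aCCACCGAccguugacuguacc

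The arm miR-181a-1-3p was detected in all 13 tumors. On the curcumin arrays 50 of 140 spots of its probe A_54_P3517 and 17 of 140 of A_54_P3518 were well above background. On the control arrays these were 118 of 120 and 91 of 120. Most spots of the curcumin arrays were thus not well above background, and the size of the fold changes below is uncertain. The log2 signal of this arm reached from 2.22 over 3.00 to 5.10 in the curcumin tumors and from 2.80 over 4.42 to 4.92 in the controls. Curcumin tumor 5 was the highest of all 13, control tumor 5 the lowest of its group, and the other 6 curcumin tumors lay at 3.16 or below while the other 5 controls lay at 4.04 or above. The means were 3.09 ± 0.95 (SD, n = 7) and 4.20 ± 0.75 (SD, n = 6). The log2 fold change was -1.11 (SE 0.47, 95% interval -2.15 to -0.07), which did not pass the threshold (limma adjusted p = 0.154). Without curcumin tumor 5 it was -1.45 (limma adjusted p = 0.0137), and without normalization between arrays it was -1.34 (limma adjusted p = 0.0217). No other setting with all 13 tumors passed, nor did a fit without any other single tumor. The log2 fold change was -2.02 on slide 1 and -0.57 on slide 2, neither past the threshold (limma adjusted p = 0.0916 and 0.94). Before normalization 6 of 7 curcumin tumors lay below every control, at 4.99 to 10.8 against 14.1 to 30.0, and curcumin tumor 5 stood at 14.6.

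The other 5 arms were detected on no array. miR-181b-1-3p, miR-181b-2-3p and miR-181c-3p were at the floor, the smallest positive normalized value, on all 13 arrays. miR-181a-2-3p was above it in 1 curcumin tumor and miR-181d-3p in 2, and none passed the threshold.

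Relations between members were computed across the tumors of one diet, 8 in all for 4 pairs in each diet, and all of them share the arrays and their normalization. Between miR-181a-5p and miR-181b-5p, r was 0.96 in the controls (exact permutation, adjusted p = 0.0482; rho 0.66, exact permutation, adjusted p = 0.233), but it rested on the 2 tumors farthest from the median of miR-181a-5p, without which it was -0.17. In the curcumin tumors it was -0.51 (exact permutation, adjusted p = 0.287; rho 0.08, exact permutation, adjusted p = 0.871), and 0.86 without the 2 farthest. Between miR-181b-5p and miR-181d-5p, r was 0.75 in the controls (exact permutation, adjusted p = 0.111; rho 0.89, exact permutation, adjusted p = 0.128) and 0.85 without the 2 farthest. In the curcumin tumors it was -0.12 (exact permutation, adjusted p = 0.769; rho 0.18, exact permutation, adjusted p = 0.804) and 0.99 without the 2 farthest. The relations of miR-181c-5p rest on values near the background: it was undetected in 2 of 7 tumors of the curcumin diet and in every control, where the order of its values changed with the normalization, so no relation is given for the controls. In the curcumin tumors its r with miR-181a-5p was 0.92 (exact permutation, adjusted p = 0.0286; rho 0.72, exact permutation, adjusted p = 0.159) and its r with miR-181d-5p was 0.83 (exact permutation, adjusted p = 0.0496; rho 0.79, exact permutation, adjusted p = 0.128). Without the 2 farthest tumors these fell to 0.67 and 0.51.

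**Figure D4:**
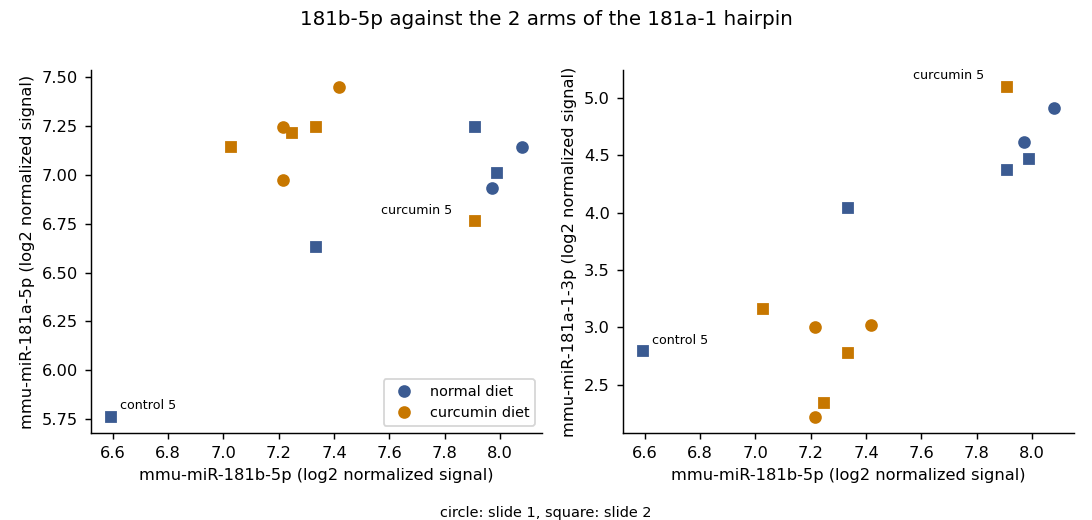
Normalized log2 signal of miR-181a-5p (left) and miR-181a-1-3p (right) against miR-181b-5p in each tumor; colors are the diets, circles slide 1 and squares slide 2, with tumor 5 of each diet named. In the left panel curcumin tumor 5, at 7.91 for miR-181b-5p and 6.76 for miR-181a-5p, lies apart from the other curcumin tumors; in the right panel it lies at 5.10 beside the upper controls.

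For the bright members, miR-181a-5p and miR-181b-5p, the miRNAs with the most similar pattern were looked up among the 243 detected on all arrays, by Pearson r of the deviations from the diet means over the 13 tumors. The r values share the arrays and their normalization and are given as a description. The closest to miR-181a-5p were miR-143-3p with r of 0.89, miR-33-5p with 0.85 and miR-28-5p with 0.83. Its cluster partner miR-181b-5p stood at rank 34 with 0.68. The closest to miR-181b-5p were miR-677-3p with 0.96, miR-361-5p with 0.94 and miR-30b-5p with 0.93. The arm miR-181a-1-3p stood at rank 26 with 0.81 in the list of miR-181b-5p and at rank 125 with 0.25 in that of miR-181a-5p. For both miR-181b-5p and miR-181a-1-3p, curcumin tumor 5 was the highest of its group (7.91 and 5.10). Control tumor 5 was the lowest of its group for both (6.59 and 2.80). The r values of this list were not computed without these tumors.

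Counts of cell type markers past the threshold stand against 15.8% of all miRNAs and 41.6% of those detected on all arrays. Of 7 miRNAs of blood cells, 6 were higher in the curcumin tumors and 0 lower, with a median log2 fold change of 1.74 against 0 over all miRNAs, and the log2 of their summed signal reached from 9.66 to 10.99 against 8.67 to 10.26 in the controls. Of 5 miRNAs of fibroblasts and smooth muscle, 2 were higher and 0 lower, with sums from 8.96 to 10.09 against 7.34 to 8.62. Among these 5, miR-143-3p did not pass (log2 fold change 0.20, limma adjusted p = 0.687). Of the melanocytic miR-204-5p and miR-211-5p, 0 were higher and 1 was lower. Their sum reached from 2.07 to 9.29 in the curcumin tumors, with tumor 5 at 9.29, and from 8.27 to 9.73 in the controls. Both lay above the floor on all 13 arrays. Among 7 miRNAs of epithelium 1 was higher and 0 lower, with sums from 7.77 to 10.76 against 1.73 to 7.37, and 2 of the 7 were at the floor on every array. Among 4 of skeletal muscle 1 was higher and 0 lower (sums from 4.86 to 9.91 against 4.55 to 9.25), and of the endothelial miR-126 arms, 2 in number, 0 passed (sums from 7.99 to 9.68 against 7.10 to 8.14). The part of these cell types in the values of miR-181c-5p, in the split of miR-181a-5p from miR-181b-5p and in the values of curcumin tumor 5 was not tested.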

How the data were processed

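Total RNA of 13 tumors was hybridized in 1 color, with 1 array per tumor. The authors read each spot's intensity with the Feature Extraction software (10.10.1.1 per the file headers). It removes the background, combines the replicate spots of a probe and calls each miRNA detected or not. The authors also deposited log2 values. All 14027 were met within 1e-04 by summing the detected probes (all probes where the miRNA was not detected), quantile normalizing, adding 4.39 and taking log2.

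Here every probe of a miRNA entered its sum, for 1079 mouse miRNAs, and the sums were quantile normalized. After this, 7215 of 14027 values were not above 0 and took the smallest positive value, 0.00765 (-7.03 on the log2 scale), called the floor. The test of the diets was limma 3.58.1 in R 4.3.3 (two-sided, no covariates), Benjamini-Hochberg adjusted over all 1079, and the pairs with exact permutation tests. The limma test was tried on simulated data with 200 known changes of 2 on the log2 scale. It recovered 57% of them, and 93.6% of those in miRNAs detected on all arrays, with 4 false calls. Groups and replicate numbers came from the labels, and no 2 arrays held equal values. The labels do not say outright that each array holds another mouse, although the group sizes match, so p-values measure the spread between these samples, which may be technical. The number of arrays limits the precision.

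Named miRNAs are the 4 members, the other miR-181 arms, array miRNAs with the same seed, and the 3 miRNAs most similar to each member detected on all arrays. The members, marker lists, tests and alternatives were chosen with earlier results of these data known. The alternatives were other scalings, floors, probe sums and background correction, the deposited values, the t-test of the methods, a filter on dim miRNAs, slides, the replicate number as a block, single probes, and each tumor left out.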

Additional observations from a re-analysis of the deposited data

Results flagged for a closer look

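Over the 18 groups of 6 or 7 tumors examined for a value far from the others, 3 held one, where chance alone gives about 1 in 20. The groups share tumors, and the differences reuse the values of the members, so this count cannot show an excess over chance. The log2 signal of miR-181a-1-3p was 5.10 in curcumin tumor 5, above the next curcumin tumor at 3.16. The log2 difference of miR-181a-5p minus miR-181b-5p was -1.14 in curcumin tumor 5, below the next at -0.24. The log2 difference of miR-181b-5p minus miR-181d-5p was 3.81 in control tumor 5, below the next control at 4.60. The first pair of values belongs to the same array, the one with the fewest detected miRNAs (272), and the third to the array with the most (412).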

How the results depend on the processing

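For miR-181a-5p and miR-181b-5p the direction and the missing call held in all 22 alternatives, 4 of them without curcumin tumor 5, and when each tumor was left out in turn the log2 fold change was 0.16 to 0.45 and -0.52 to -0.22. Without quantile normalization miR-181c-5p came to -0.20 and -0.0339 (scaled to the 75th percentile of the miRNAs detected on all arrays, and of all miRNAs) and to -0.0455 unscaled, because curcumin tumor 5, with a summed signal below 0, then lies at the floor. The call for miR-181c-5p was also lost on slide 1 (1.44) and slide 2 (1.96) and with the probe A_54_P1485 (6.66, with values at the floor). It was lost in part when 1 tumor was left out (1.44 to 2.04). The filter on dim miRNAs removed miR-181c-5p, which was detected in 5 of 7 curcumin tumors and 0 of 6 controls. Its call was therefore not tested in that setting. For miR-181d-5p the fold change changed sign around 0 with the deposited values (0.0048), detected-probe sums with either floor (0.008), slide 2 (0.0779), the probe A_54_P2983 (0.10), curcumin tumor 5 left out before normalization (0.0418), with the percentile of all miRNAs (0.0596) and unscaled (0.0334), and from -0.13 to 0.056 with 1 tumor left out.

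The same scalings took the difference for c minus d to 0.0629, 0.0095 and 0.22 and that for a minus c to 0.43, 0.48 and 0.27. For a minus c normexp gave 0.10 and the deposited values, which hold an added constant, gave -0.21. Normexp gave 0.44 for a minus b (adjusted p = 0.0699, exact permutation test). Within slides 1 and 2 the differences were 0.93 and 0.51 (a minus b), 1.72 and 1.88 (c minus d) and -1.26 and -1.53 (a minus c), where slide 1 could not pass, its smallest possible p being 0.1. On slide 2 these pairs did not pass either (exact permutation, adjusted p = 0.19, 0.114 and 0.114). With 1 tumor left out they were 0.62 to 0.83, 1.51 to 2.04, -1.61 to -1.28 and, for b minus d, -0.44 to -0.19. Curcumin tumor 5 left out before normalization gave -0.45 for b minus d. The number of miRNAs past the threshold was 171 in the main setting, 105 with the percentile of all miRNAs, 49 unscaled, 34 and 3 on slides 1 and 2, and 103 to 184 with 1 tumor left out. Of those called, 52.6% were higher, against 69.5% with the percentile of all miRNAs, 20.4% unscaled and 41.5% with the filter on dim miRNAs. The median log2 fold change of miRNAs detected on all arrays moved from -0.09 to -0.25 and -0.26 with the first percentile and unscaled, and the single-member values move with it.

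Tumors with the same replicate number did not deviate together (r = -0.30 to 0.20 over 6 numbers), and none correlated best with its own number. With the replicate number as a block the count was 67, miR-181c-5p came to 1.75 (limma adjusted p = 0.0527), miR-181d-5p to 0.0056, and the pairs to 0.62 (a minus b), 1.74 (c minus d) and -1.38 (a minus c), where the smallest possible p of a sign-flip test was 0.0313. None of these pairs passed (sign-flip test, adjusted p = 0.0833, 0.0625 and 0.0625). The planned normexp correction on spot means was not run, and spot medians were used in its place. That setting, curcumin tumor 5 left out before normalization or without it, and the floor with detected-probe sums were chosen after seeing the data. Signals near the background limit what can be said of miR-181c-5p and of the undetected arms.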
